A study of Mus musculus with 17 samples.

Results

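The 10 genes described here are expressed by endothelial cells, the cells that line blood vessels. Of these, 6 are genes of endothelial identity (*Pecam1*, *Cdh5*, *Kdr*, *Tek*, *Tie1* and *Egfl7*) and 4 are adhesion genes that activated endothelium displays (*Vcam1*, *Icam1*, *Sele* and *Selp*). RNA of whole hearts does not show which cells made a transcript, so the adhesion genes need not come from endothelium alone. The 10 genes were taken by gene name from a table of 56748 genes, each name matched 1 row, and all 10 passed the filter on low counts. Their RNA was compared between 9 whole hearts of Polg hMut mice (hMut) and 8 whole hearts of control mice (Ctrl), with 1 library per heart and no treatment. The hMut mice were homozygous for the inducible Polg iMut allele and carried 1 Ckmm-cre transgene (Polg iMut/iMut; +/Ckmm-cre), so that a proofreading-deficient mitochondrial DNA polymerase was switched on where the muscle creatine kinase promoter drives Cre, that is in muscle cells. The labels give the other group only as control and do not say which alleles those mice carried. Mice of both groups were 12 to 16 months old.

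Endothelial cells form a single sheet that separates blood from tissue, and in the heart a dense capillary bed runs along the muscle fibers. Junction proteins hold the sheet together, receptors for vascular endothelial growth factor (VEGF) and for angiopoietins control its growth and its calm state, and inflammatory signals such as tumor necrosis factor, acting largely through the transcription factor NF-kappaB, put selectins and adhesion molecules on its surface. Selectins let leukocytes roll along the vessel wall, and ICAM-1 and VCAM-1 then hold them firmly by binding their integrins.

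*Kdr*, which encodes VEGF receptor 2, was the only gene of the 10 that passed the test. It was higher in hMut hearts by 1.31-fold (95% interval 1.13 to 1.52), while the other 5 identity genes differed by at most 1.11-fold in either direction and did not pass. *Icam1* had the highest estimate of the 10, 1.42-fold, and did not pass. Across all genes tested, 3.48% were called higher in hMut hearts and 1.14% lower, against 1 and 0 of these 10, so that the members' count of calls (1 of 10) is too small to be read against that background. At an unadjusted p under 0.05 there were 4 of the 10 genes, all with higher estimates, against 25.8% of all 16195 genes tested. The median log2 fold change was 0.09 over the identity genes, 0.37 over the activation genes and 0.0023 over all genes tested. Without hMut replicates 6 and 9, described next, the medians were 0.09 and 0.18.

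Total counts lay between 32915159 and 46486964 per heart. Reads of mtDNA-encoded genes took 23.5% to 30.9% of the counts in Ctrl hearts and 15.9% to 23.0% in hMut hearts. Counts of sex-linked genes put 3 Ctrl and 2 hMut hearts in females. The hMut replicates 6 and 9 stood apart: the summed level of 14 leukocyte markers was 1177 and 564 CPM (each count per 1000000 counts of the library, its size scaled by the trimmed mean of M-values) in these 2 hearts, and they were the only hMut hearts above the Ctrl range of 204 to 363 CPM. Values that changed most without these 2 hearts are given both ways.

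In Ctrl hearts the identity genes were expressed well above the activation genes. Per kilobase of the gene length given in the table, the mean level was 45.6 CPM for *Cdh5* (SD 3.98, n = 8), 30.0 CPM for *Pecam1* (SD 1.76), 24.7 CPM for *Kdr* (SD 3.80), 22.0 CPM for *Tie1* (SD 2.40), 18.3 CPM for *Egfl7* (SD 0.828) and 14.6 CPM for *Tek* (SD 0.850). On the same scale *Icam1* was at 3.01 CPM (SD 0.452) and *Vcam1* at 2.98 CPM (SD 0.560), followed by *Sele* at 0.809 CPM (SD 0.129) and *Selp* at 0.0870 CPM (SD 0.0253). *Cdh5* lay above *Pecam1* without overlap of the 8 hearts. From *Pecam1* through *Kdr* and *Tie1* to *Egfl7*, neighbors in this order overlapped, as did *Icam1* and *Vcam1*. The lowest identity gene, *Tek*, was still 4.85 times the highest activation gene.

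**Figure D1:**
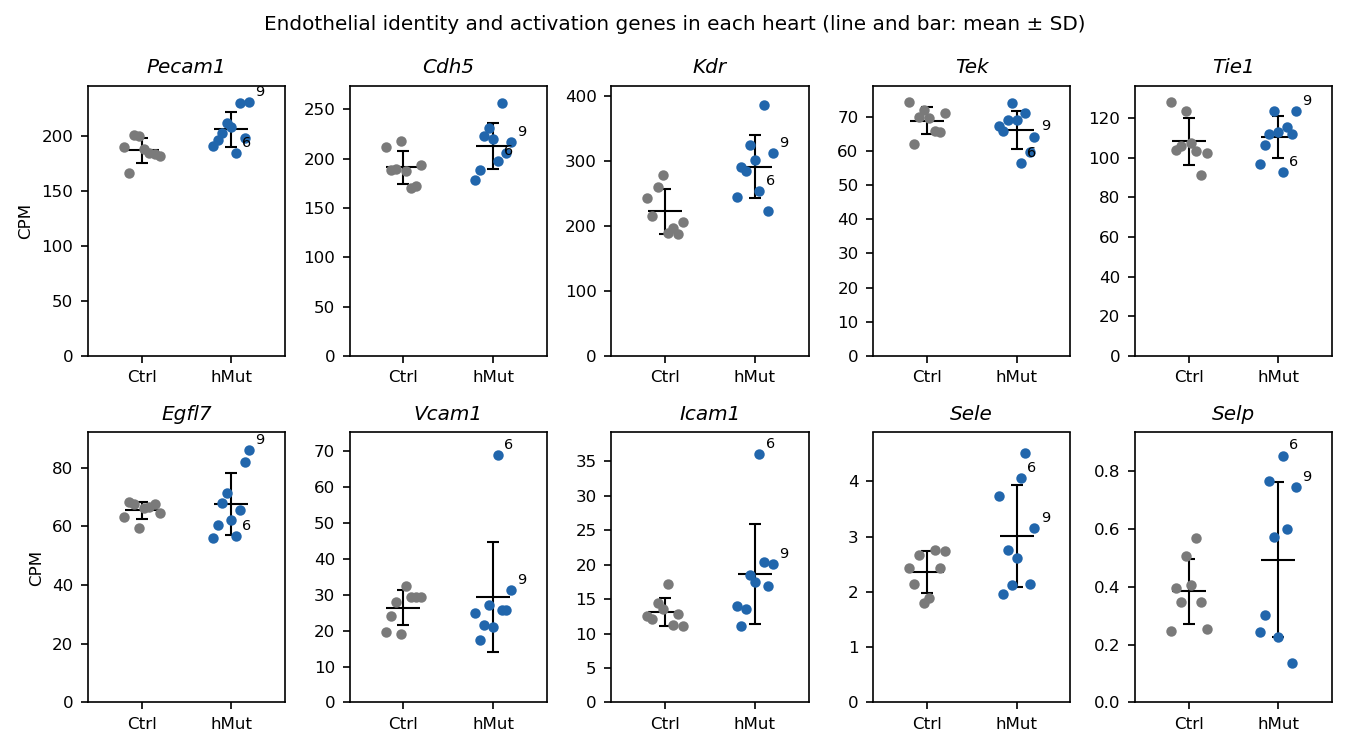
CPM of each of the 10 genes (vertical axis, from 0) in the 8 Ctrl hearts (gray) and the 9 hMut hearts (blue), with the mean and SD of each group in black and hMut replicates 6 and 9 numbered. *Kdr* lay above every Ctrl heart in 6 of 9 hMut hearts, and replicate 6 alone carried the high *Vcam1* level of 68.8 CPM.

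*Kdr* lies on the minus strand of chromosome 5 (GRCm39, 76093487 to 76139118). Its level in Ctrl hearts ran from 188 CPM to 279 CPM with a median of 211 CPM, and in hMut hearts from 223 CPM to 386 CPM with a median of 291 CPM. All 9 hMut hearts lay above the Ctrl median and 6 lay above every Ctrl heart, the highest being replicate 7, so that only the lower hMut and upper Ctrl hearts overlapped. The log2 fold change was 0.39 (SE 0.10, adjusted p = 0.0407, edgeR quasi-likelihood test with Benjamini-Hochberg adjustment over all genes tested). This adjusted p is close to the threshold of 0.05. The call was kept without Ctrl replicate 3 or 4 or hMut replicate 1, 2, 6 or 8 and was lost without any other single heart, namely Ctrl replicates 1, 2, 5, 6, 7 and 8 and hMut replicates 3, 4, 5, 7 and 9, with log2 fold changes of 0.33 to 0.44 and adjusted p of 0.0189 to 0.0836 over the 17 fits. Without hMut replicates 6 and 9 together the log2 fold change was 0.40 (adjusted p = 0.0546).

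The 3 female Ctrl hearts held the lowest *Kdr* levels of the study, 188 to 197 CPM, below the 5 male Ctrl hearts at 207 to 279 CPM. The 2 female hMut hearts were at 244 and 326 CPM, and the 7 male hMut hearts at 223 to 386 CPM. With sex as a covariate the log2 fold change of *Kdr* was 0.37 (adjusted p = 0.0489, edgeR). In male hearts alone it was 0.28 (adjusted p = 0.249), and that fit called 139 genes against 749 with all hearts.

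The promoter of *Kdr* is shown because it was the gene called, and nothing was measured at it. RefSeq promoters (250 bases before to 50 after a transcript start, from a table on the previous mouse build, each found once in GRCm39 by exact match) were at hand for 7 of the 10 genes, 9 promoters in all. They were searched on both strands for the NF-kappaB consensus (the kappaB motif), the ETS core AGGAAG and the TATA box TATAAA, which do not overlap one another here. The kappaB motif was searched only as GGGRNNYYCC, where R is A or G, Y is C or T and N is any base. In the *Kdr* promoter, given for chr5:76139066-76139365 on the minus strand, capitals mark a kappaB match 74 to 65 bases before the start. It reads as a match on either strand:

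*Kdr* promoter: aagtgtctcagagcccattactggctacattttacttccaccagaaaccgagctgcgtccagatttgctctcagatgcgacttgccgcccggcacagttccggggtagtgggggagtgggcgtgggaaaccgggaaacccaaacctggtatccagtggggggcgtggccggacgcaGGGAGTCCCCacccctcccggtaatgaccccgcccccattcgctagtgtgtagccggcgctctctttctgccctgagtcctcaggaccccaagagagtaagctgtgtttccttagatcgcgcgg

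Of all 32851 promoters, 8.46% held a kappaB match, against 1 of these 9. A match is a stretch of letters and not a measured site. A promoter without a match can hold a site that departs from the pattern searched.

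*Pecam1* encodes the junction protein CD31 and *Cdh5* encodes VE-cadherin, the adhesion protein of endothelial junctions. *Pecam1* (chromosome 11, 106545043 to 106641454, minus strand) ran from 166 to 201 CPM in Ctrl hearts (median 186) and from 184 to 230 CPM in hMut hearts (median 203). *Cdh5* (chromosome 8, 104828257 to 104871143, plus strand) ran from 170 to 218 CPM in Ctrl hearts (median 189) and from 178 to 256 CPM in hMut hearts (median 217). The ranges overlapped for both, with 5 and 4 hMut values beyond the Ctrl maximum. The log2 fold change was 0.14 for *Pecam1* (SE 0.05, adjusted p = 0.105, edgeR) and 0.15 for *Cdh5* (SE 0.07, adjusted p = 0.166, edgeR), and neither passed. With limma-voom and quality weights both were called, at adjusted p of 0.0168 and 0.0309.

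*Tek* encodes TIE2, the receptor for angiopoietins, and *Tie1* encodes its partner receptor. *Tek* (chromosome 4, 94627526 to 94763213, plus strand) ran from 62.0 to 74.3 CPM in Ctrl hearts (median 69.8) and from 56.3 to 74.0 CPM in hMut hearts (median 67.3). Its log2 fold change of -0.05 (95% interval -0.16 to 0.05, adjusted p = 0.514, edgeR) was the only estimate below 0 among the 10 genes. *Tie1* (chromosome 4, 118328388 to 118347258, minus strand) ran from 91.4 to 128 CPM in Ctrl hearts (median 105) and from 92.7 to 124 CPM in hMut hearts (median 112), with a log2 fold change of 0.03 (95% interval -0.11 to 0.18, adjusted p = 0.798, edgeR). No hMut heart lay above every Ctrl heart for either gene.

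*Egfl7*, which encodes a secreted endothelial factor, lies on the plus strand of chromosome 2 (26470026 to 26483132). It ran from 59.5 to 68.2 CPM in Ctrl hearts (median 66.4) and from 56.1 to 86.1 CPM in hMut hearts (median 65.5). Its hMut values spread widely, with 3 hearts above and 2 below every Ctrl heart and a coefficient of variation of 15.7% against 4.53% in Ctrl hearts. The log2 fold change was 0.05 (95% interval -0.12 to 0.21, adjusted p = 0.723, edgeR). It overlaps *Agpat2* on the opposite strand over 64 bases and the protein-coding *Gm20532* on its own strand over 6482 bases, the latter with 0 counts in every heart. Since the use of strand in counting is not stated in the sources used here, and reads in a stretch shared on 1 strand cannot be split by strand, its values are uncertain to the extent that reads were shared or dropped.

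The activation genes were lower and more variable. *Icam1*, whose product binds the leukocyte integrin LFA-1, lies on chromosome 9 (20927281 to 20940113, plus strand). It ran from 11.1 to 17.1 CPM in Ctrl hearts (median 12.7) and from 11.03 to 36.1 CPM in hMut hearts (median 17.5). Replicate 6 held the highest level, 5 of 9 hMut hearts lay above every Ctrl heart and 1 lay below. The log2 fold change was 0.51 (SE 0.18, 95% interval 0.14 to 0.88, adjusted p = 0.0955, edgeR). Without hMut replicates 6 and 9 it was 0.28 (adjusted p = 0.202). DESeq2 called *Icam1* (log2 fold change 0.50, adjusted p = 0.0439), as did limma-voom with quality weights (0.37, adjusted p = 0.0486).

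*Vcam1*, whose product binds the integrin VLA-4, lies on chromosome 3 (115903598 to 115923337, minus strand). It ran from 19.0 to 32.4 CPM in Ctrl hearts (median 28.6) and from 17.4 to 68.8 CPM in hMut hearts (median 25.7). The hMut mean exceeded the Ctrl mean through replicate 6 alone: the other 8 hMut hearts reached at most 31.3 CPM, inside the Ctrl range. The log2 fold change was 0.15 with all hearts (95% interval -0.31 to 0.61, adjusted p = 0.678, edgeR), -0.12 without replicate 6 (adjusted p = 0.610) and -0.18 without replicates 6 and 9 (adjusted p = 0.446). In Ctrl hearts *Vcam1* was at 29.3 to 32.4 CPM in the 3 females and at 19.0 to 29.4 CPM in the 5 males.

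*Sele* (E-selectin, chromosome 1, 163875803 to 163885246, plus strand) is made by endothelium on inflammatory stimulation, and its neighbor *Selp* (P-selectin, chromosome 1, 163942833 to 163977595, plus strand) is stored in endothelial cells and platelets. *Sele* ran from 1.80 to 2.75 CPM in Ctrl hearts (median 2.43) and from 1.95 to 4.51 CPM in hMut hearts (median 2.76), on 57 to 171 counts per heart. The hMut level exceeded the Ctrl maximum in 5 of 9, the highest being replicate 7 and then replicate 6. The log2 fold change was 0.35 (95% interval -0.0066 to 0.71, adjusted p = 0.200, edgeR). *Selp* had only 5 to 36 counts per heart and ran from 0.245 to 0.568 CPM in Ctrl hearts (median 0.372) and from 0.137 to 0.853 CPM in hMut hearts (median 0.573). Its hMut hearts fell on both sides of the Ctrl range, 5 above and 3 below, and its log2 fold change of 0.38 had an interval of -0.30 to 1.06 (adjusted p = 0.458, edgeR). Its coefficient of variation was 54.5% in hMut hearts and 29.1% in Ctrl hearts. Without hMut replicates 6 and 9 the log2 fold change was 0.11 (adjusted p = 0.897), and a difference of either sign was not detectable with these hearts and counts.

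The promoters of *Icam1* (chr9:20926986-20927285, plus strand) and *Sele* (chr1:163875553-163875852, plus strand) are shown because these inducible genes had the highest estimates of the activation genes with more than 50 counts in every heart. The gene position of *Icam1* given above begins at 20927281, downstream of the start listed for this promoter and of its TATAAA match. Capitals mark TATAAA, 13 to 18 bases after the listed start in *Icam1* and 49 to 44 bases before it in *Sele*, and AGGAAG, 65 to 60 bases before it in *Sele*:

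*Icam1* promoter: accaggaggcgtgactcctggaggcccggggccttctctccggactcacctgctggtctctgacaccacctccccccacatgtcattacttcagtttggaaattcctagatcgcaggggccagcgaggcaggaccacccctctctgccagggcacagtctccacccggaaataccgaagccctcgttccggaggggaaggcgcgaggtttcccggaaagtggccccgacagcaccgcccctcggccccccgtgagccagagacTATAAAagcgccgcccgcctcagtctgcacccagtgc

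*Sele* promoter: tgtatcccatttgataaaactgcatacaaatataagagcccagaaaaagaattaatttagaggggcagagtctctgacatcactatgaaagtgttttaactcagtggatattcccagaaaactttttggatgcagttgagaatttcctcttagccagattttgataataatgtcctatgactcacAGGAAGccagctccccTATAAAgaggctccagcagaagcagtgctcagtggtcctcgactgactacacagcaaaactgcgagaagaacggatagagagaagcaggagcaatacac

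TATAAA stood in 2 of the 9 promoters and in 13.6% of all promoters, and the ETS core in 5 of 9 against 35.4%. The ETS matches were in *Sele*, *Selp*, *Tie1* and 2 of the 3 promoters of *Egfl7*.

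**Figure D2:**
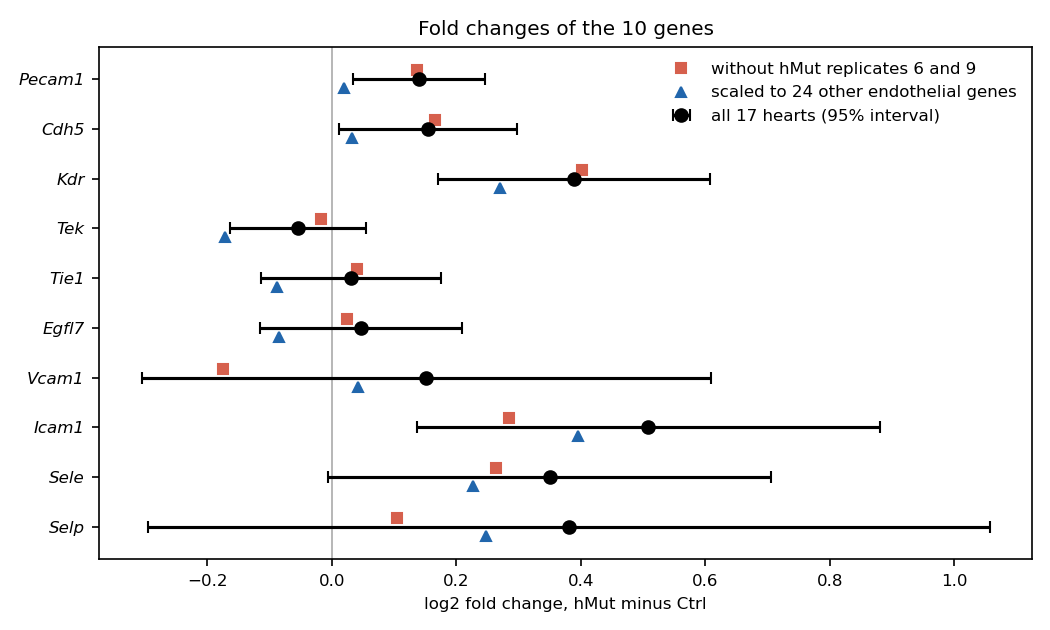
Log2 fold change of each gene, hMut minus Ctrl (horizontal axis). Black points with bars give the estimate and 95% interval over all 17 hearts, red squares the estimate without hMut replicates 6 and 9, and blue triangles the estimate after scaling to 24 other endothelial genes. *Kdr* kept the highest estimate of the identity genes in all 3, while *Vcam1* went from 0.15 to -0.18 without the 2 hearts.

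In RNA from whole tissue, a change in the number of endothelial cells and a change in RNA per cell cannot be told apart. The summed level of the 6 identity genes was 768 to 951 CPM in Ctrl hearts (median 814) and 833 to 1124 CPM in hMut hearts (median 959). Estimates for muscle cell markers lay on the other side, with all 12 cardiomyocyte markers below 0 (median log2 fold change -0.23; 0 passed, edgeR; 8 had an unadjusted p under 0.05, and DESeq2 called 4 and limma-voom 6 of them lower), and their summed level was 50152 to 60025 CPM in Ctrl hearts and 37998 to 58475 CPM in hMut hearts, with 41043 CPM in replicate 6 and 37998 CPM in replicate 9. Without those 2 hearts the median was -0.14. The smallest p were those of *Myh6*, a myosin heavy chain (-0.34, adjusted p = 0.0601, edgeR), and *Tnni3*, cardiac troponin I (-0.43, adjusted p = 0.0629, edgeR). Over all genes tested, DESeq2 called 512 of 14922 lower and limma-voom 906 of 16195. None of the 12 cardiomyocyte markers was at 0 in every heart. The part of this difference in the higher endothelial levels was not tested.

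To set each gene against other endothelial transcripts, the libraries were also scaled to 24 other endothelial genes. On that scale the median log2 fold change of all genes tested moved by -0.12, and 168 genes were called higher and 167 lower, against 564 and 185 on the main scale. None of the 10 genes was called there by edgeR, and 3 had an unadjusted p under 0.05, *Kdr* (log2 fold change 0.27, adjusted p = 0.0776), *Icam1* (0.40, adjusted p = 0.150) and *Tek* (-0.17, adjusted p = 0.0899). *Pecam1* and *Cdh5* were at 0.02 and 0.03, and the estimates of *Tie1* and *Egfl7* changed sign to -0.09 and -0.08.

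A different scale, the sum of the 6 identity genes, can be read heart by heart. *Kdr* made up 23.5% to 29.3% of the summed CPM of the 6 identity genes (itself among them) in Ctrl hearts and 25.3% to 34.4% in hMut hearts, 7 of which lay above every Ctrl heart. *Tek* made up 7.56% to 8.67% in Ctrl hearts and 6.20% to 8.07% in hMut hearts, 8 of which lay below every Ctrl heart. The shares of the 6 identity genes sum to 100%, so that a higher share of *Kdr* lowers the others. A higher *Kdr* also raises the sum by which *Icam1*, *Vcam1* and *Sele* are divided. *Icam1* amounted to 1.36% to 2.12% of that sum in Ctrl hearts and 1.21% to 4.29% in hMut hearts, where only replicate 6 exceeded the Ctrl range. The Ctrl maximum was that of Ctrl replicate 5, and the next Ctrl heart was at 1.68%. The hMut replicates 4, 5, 7, 8 and 9 were at 1.78% to 1.94%, and replicates 1, 2 and 3 at 1.21% to 1.67%. *Vcam1* amounted to 1.999% to 4.01% and 1.92% to 8.19%, again with replicate 6 alone above the Ctrl range, and *Sele* to 0.190% to 0.350% and 0.205% to 0.482%, with 3 hearts above it.

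**Figure D3:**
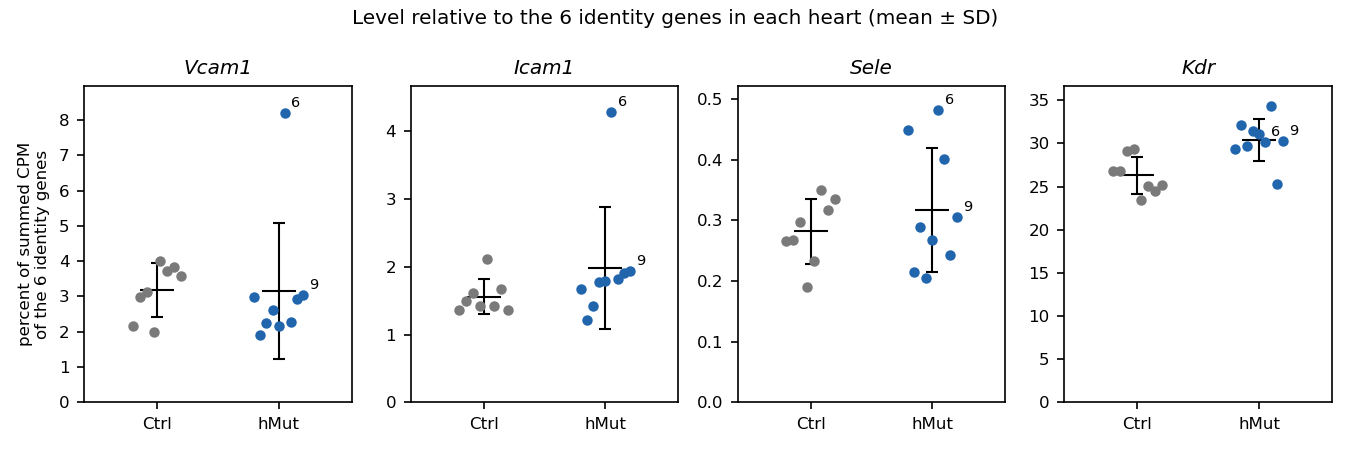
CPM of *Vcam1*, *Icam1*, *Sele* and *Kdr* as a percent of the summed CPM of the 6 identity genes (vertical axis, from 0) in each Ctrl (gray) and hMut (blue) heart, with mean and SD in black. For *Kdr*, 7 of 9 hMut hearts lay above every Ctrl heart, and for *Vcam1* and *Icam1* only replicate 6 did. The highest Ctrl heart for *Icam1* was Ctrl replicate 5 at 2.12%, and the next was at 1.68%.

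Over all 17 hearts the identity genes varied together unevenly. *Pecam1* and *Kdr* had a Spearman's rho of 0.86, *Cdh5* and *Kdr* 0.78, and the median over the 15 pairs was 0.40, with the lowest value of -0.17 for *Tek* and *Egfl7*. The 6 pairs of activation genes lay between 0.33 and 0.40, and the 24 pairs across the classes between -0.40 and 0.57. These values describe 17 libraries that share their scaling and pool both groups, so that a difference between the groups enters rho. The like genes named next are only the 2 highest of many compared. How high unrelated genes would reach was not tested. Among 13620 genes with a mean of at least 1 CPM, members aside, the genes whose pattern was most like that of *Kdr* were *Tnfaip1* (rho 0.92) and *Mpzl1* (0.90), of *Pecam1* *Tmem204* (0.88) and *Il1r1* (0.88), of *Cdh5* *Cystm1* (0.91) and *Hdgf* (0.88), and of *Tie1* *Arap3* (0.91) and *Shank3* (0.89). For *Tek* they were *Cavin2* (0.85) and *Sema6a* (0.81), and for *Egfl7* *Map3k7cl* (0.79) and *Rpl17-ps3* (0.78). For the activation genes they were *Tgfb1i1* and *Dynll1* (both 0.93) for *Icam1*, *Anpep* (0.91) and *Cnot9* (0.88) for *Vcam1*, *Scfd1* (0.85) and *Hif1a* (0.82) for *Sele*, and *Tma7* (0.86) and *Vamp4* (0.86) for *Selp*.

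Of all genes tested, 3.48% were called higher in hMut hearts and 1.14% lower. Calls in the lists that follow are by edgeR unless another tool is named, and their counts were not tested against these shares. Over all genes, DESeq2 called 1012 higher and 512 lower of 14922, and limma-voom 1175 and 906 of 16195. Of 24 other genes that endothelial cells share, 2 rose and 0 fell. There were 5 at an unadjusted p under 0.05, all with estimates above 0, a share below the 25.8% of all genes tested. Estimates lay above 0 for 20 of the 24, with a median log2 fold change of 0.09. Scaling the libraries to these same 24 genes holds their typical change near 0 by construction, and the median was then -0.03. *Eng*, which encodes the co-receptor endoglin, ran from 142 to 161 CPM in Ctrl hearts and from 148 to 246 CPM in hMut hearts (log2 fold change 0.35, SE 0.09, adjusted p = 0.0371, edgeR). *Cldn5*, which encodes the tight junction protein claudin-5, ran from 11.4 to 25.3 CPM and from 20.3 to 36.0 CPM (0.61, SE 0.16, adjusted p = 0.0388, edgeR). For both, 6 of 9 hMut hearts lay above every Ctrl heart. Without hMut replicates 6 and 9 neither passed, at log2 fold changes of 0.30 for *Eng* (adjusted p = 0.0701) and 0.55 for *Cldn5* (adjusted p = 0.0801). The call of *Eng* was kept in 6 and that of *Cldn5* in 8 of the 17 fits that left out 1 heart, at adjusted p of up to 0.0744 and 0.0786.

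Among 18 ligands, receptors and targets of VEGF, angiopoietin, apelin and Notch signaling, 1 rose and 0 fell, with a median log2 fold change of 0.08. The gene that rose was *Angpt2*, which encodes angiopoietin-2, a ligand of the receptor made from *Tek*. It ran from 5.07 to 7.64 CPM in Ctrl hearts and from 6.86 to 15.1 CPM in hMut hearts, with 7 of 9 above every Ctrl heart. Its log2 fold change was 0.67 (SE 0.15, adjusted p = 0.0156, edgeR). *Angpt2* stayed past the threshold without replicates 6 and 9 (0.62, adjusted p = 0.0295), without each single heart, and when scaled to endothelial genes (0.53, adjusted p = 0.0289). With the replicate number as a block, and in male hearts alone, no list gene was called, *Angpt2* among them.

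Of 17 tested genes of inflammatory signaling and its endothelial targets, 2 rose and 0 fell (median log2 fold change 0.30), and 11 had an unadjusted p under 0.05, 8 of them with estimates above 0 and 3 below. *Relb*, a subunit of NF-kappaB, ran from 6.82 to 9.54 CPM in Ctrl hearts and from 8.70 to 17.2 CPM in hMut hearts (log2 fold change 0.54, SE 0.12, adjusted p = 0.0147, edgeR). *Cx3cl1*, which encodes the membrane-bound chemokine fractalkine, ran from 10.9 to 17.1 CPM and from 14.1 to 40.5 CPM (0.67, SE 0.17, adjusted p = 0.0357, edgeR). For each, 7 of 9 hMut hearts lay above every Ctrl heart, and replicate 6 was highest. Without replicates 6 and 9 both still passed, *Relb* at 0.42 (adjusted p = 0.0260) and *Cx3cl1* at 0.42 (adjusted p = 0.0389), while the median of the list was 0.03. Scaled to endothelial genes neither passed, at 0.42 for *Relb* (adjusted p = 0.0625) and 0.56 for *Cx3cl1* (adjusted p = 0.0739). With 1 heart left out, *Relb* passed in 17 of 17 fits and *Cx3cl1* in 8, with an adjusted p of up to 0.0738.

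Partners in leukocyte adhesion were described by 17 tested integrins, selectin ligands and junction genes. The list does not describe leukocytes alone, since it holds junction genes and *Icam2*, which is also among the 24 other endothelial genes. None of the 17 genes was called by edgeR on the main scale, by DESeq2 or by limma-voom, and 5 had an unadjusted p under 0.05. Those with the smallest p were *Cd44*, a receptor for hyaluronan (log2 fold change 0.72, adjusted p = 0.132, edgeR), and *Spn*, the leukocyte sialoglycoprotein CD43 (1.31, adjusted p = 0.135, edgeR). Replicate 6 held 46.0 CPM of *Cd44* and 33.1 CPM of *Spn*, against Ctrl means of 10.3 and 2.82 CPM, and without replicates 6 and 9 their log2 fold changes were 0.22 and 0.17. The median of the list by edgeR was 0.39 with all hearts and -0.04 without replicates 6 and 9. With all hearts it was 0.055 by DESeq2 and 0.11 by limma-voom. Scaled to endothelial genes, edgeR called 1 gene of the list lower, and the list median was 0.27. The 14 leukocyte markers behaved alike, with 0 called by any of the 3 tools, 5 at an unadjusted p under 0.05, none at 0 in every heart, and an edgeR median of 0.60 with and -0.14 without those hearts. Their median with all hearts was 0.19 by DESeq2 and 0.20 by limma-voom. *Cd3e* (T cells) and *Csf1r* (macrophages) had the smallest p of these markers (log2 fold changes 2.08 and 0.42, adjusted p = 0.122 and 0.135, edgeR). *Cd3e* was at 8.60 CPM in replicate 6 and at most 0.834 CPM in the other hMut hearts. Without replicates 6 and 9 the log2 fold changes were 0.17 and 0.14 (adjusted p = 0.863 and 0.391, edgeR). Those hearts were set apart by the sum of the same 14 markers, so lower values without them follow from that choice. That choice bears also on the leukocyte genes among the adhesion partners. The part of leukocytes in the *Vcam1* and *Icam1* levels of replicate 6 was not tested.

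Of 12 genes of the quiescent, anticoagulant state, 1 rose and 0 fell (median 0.03). This was *Plat*, which encodes tissue plasminogen activator, at 21.5 to 26.0 CPM in Ctrl hearts and 24.9 to 47.4 CPM in hMut hearts, 8 of 9 above the Ctrl maximum (log2 fold change 0.47, SE 0.10, adjusted p = 0.0132, edgeR). Without replicates 6 and 9 it passed at 0.34 (adjusted p = 0.00706), and scaled to endothelial genes it did not (0.35, adjusted p = 0.0688). It passed in all 17 fits that left out 1 heart.

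Markers of the vessel types gave few calls. None of 10 capillary, 9 arterial, 7 tested venous or 5 endocardial genes was called by edgeR, with 4, 3, 2 and 0 at an unadjusted p under 0.05, while DESeq2 and limma-voom each called 2 arterial genes and 0 of the other 3 lists. Their median log2 fold changes were -0.09, 0.01, 0.15 and 0.07, and without hMut replicates 6 and 9 they were -0.0050, 0.08, 0.01 and -0.01. Scaled to endothelial genes, edgeR called 1 capillary gene lower, with a capillary median of -0.20, and 0 genes of the other 3 lists. That fit called 167 of 16195 genes lower. The venous list holds *Vcam1*, *Sele* and *Selp*. The smallest p among capillary genes were those of *Meox2* (-0.17, adjusted p = 0.138, edgeR) and the water channel gene *Aqp1* (-0.35, adjusted p = 0.142, edgeR), and among arterial genes those of *Fbln5* (0.25, adjusted p = 0.0566, edgeR) and the Notch target *Hey1* (0.44, adjusted p = 0.0826, edgeR). The venous genes with the smallest p were *Lrg1* (-0.30, adjusted p = 0.152, edgeR) and *Nr2f2* (-0.19, adjusted p = 0.186, edgeR), and the endocardial ones *Npr3* (0.25, adjusted p = 0.243, edgeR) and *Tmem108* (-0.27, adjusted p = 0.341, edgeR).

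Of 8 lymphatic genes, 0 rose and 1 fell: *Ccl21a*, a chemokine gene of lymphatic endothelium, ran from 10.9 to 27.0 CPM in Ctrl hearts and from 5.06 to 18.2 CPM in hMut hearts (log2 fold change -0.79, SE 0.22, adjusted p = 0.0466, edgeR). It did not pass without replicates 6 and 9 (-0.68, adjusted p = 0.111). Reads of *Ccl21a* can be shared with near-identical *Ccl21* copies, so its value is uncertain. The median of the lymphatic list was -0.19, with 4 genes at an unadjusted p under 0.05, 2 above 0 and 2 below. By DESeq2 0 lymphatic genes rose and 1 fell, and by limma-voom 1 rose and 1 fell. Of 10 mural cell genes 1 rose and 0 fell by edgeR, with a median of 0.15. At an unadjusted p under 0.05 there were 6, of which 5 lay above 0 and 1 below. DESeq2 called 1 mural gene higher and 1 lower, and limma-voom 2 and 1. The gene that rose by edgeR was the pericyte receptor gene *Pdgfrb* (0.24, SE 0.07, adjusted p = 0.0442, edgeR). It did not pass without replicates 6 and 9 (0.19, adjusted p = 0.107, edgeR) or when scaled to endothelial genes (0.12, adjusted p = 0.225, edgeR). With 1 heart left out, *Ccl21a* passed in 4 and *Pdgfrb* in 2 of 17 fits, at adjusted p of up to 0.0932 and 0.0852.

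Of the other cells a heart sample holds, 10 fibroblast, 4 tested platelet and 6 erythroid markers gave no call by edgeR, with 7, 1 and 0 at an unadjusted p under 0.05, and 2, 0 and 0 calls by DESeq2 and by limma-voom. *Postn*, the periostin gene of activated fibroblasts, had the smallest p of the fibroblast genes (log2 fold change 1.36, adjusted p = 0.0512, edgeR), with 307 CPM in replicate 6 and 207 CPM in replicate 9 against a Ctrl mean of 41.0 CPM, followed by *Tcf21* (0.25, adjusted p = 0.0801, edgeR). Without these 2 hearts *Postn* was at 0.60 (adjusted p = 0.131). The summed level of the platelet markers, a second source of *Selp*, was 10.9 to 18.1 CPM in Ctrl hearts and 12.6 to 22.2 CPM in hMut hearts, and that of the erythroid markers was 251.4 to 1387 CPM and 284 to 1097 CPM. *Itga2b* (0.63, adjusted p = 0.182, edgeR) and *Pf4* (0.15, adjusted p = 0.245, edgeR) had the smallest p of the platelet markers, and the globin genes *Hbb-bt* (-0.17, adjusted p = 0.748, edgeR) and *Hba-a2* (0.14, adjusted p = 0.782, edgeR), whose reads can be shared with near-identical copies, those of the erythroid markers.

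**Figure D4:**
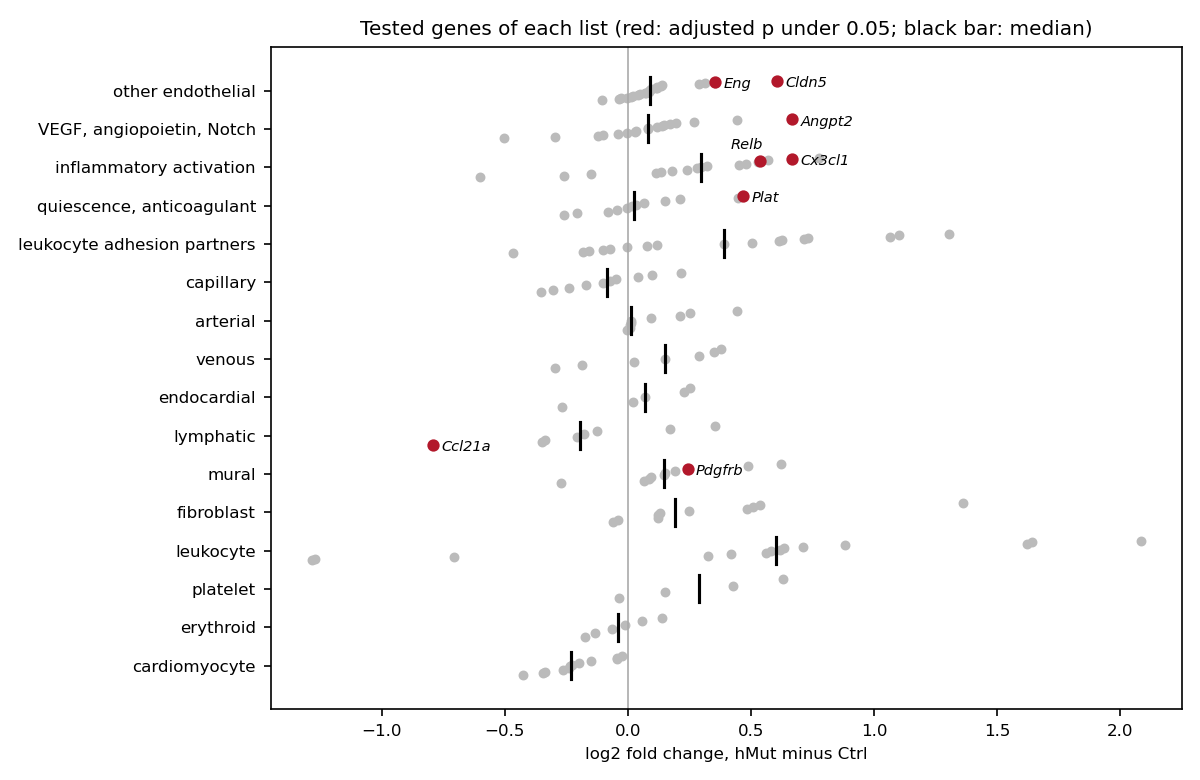
Log2 fold change, hMut minus Ctrl (horizontal axis), of every tested gene of each list (rows). Red points with names passed the threshold of 0.05 on the adjusted p, gray points did not, and black bars are list medians. The 8 genes called are *Eng*, *Cldn5*, *Angpt2*, *Relb*, *Cx3cl1*, *Plat* and *Pdgfrb*, higher in hMut hearts, and *Ccl21a*, lower. Over all genes tested, 3.48% were called higher and 1.14% lower.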

How the data were processed

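Poly(A)-selected RNA of 17 mouse hearts was sequenced, 1 library per mouse. Per the labels and the study's methods, the authors filtered reads with fastp, aligned them to GRCm39 (mm39) with HISAT2 2.2.1 and took gene counts with featureCounts 2.0.6. The deposited values are raw counts that the authors did not normalize. Use of strand and the annotation release are not given in the sources used here. Groups and replicate numbers came from the labels.

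Counts were tested with edgeR 4.0.16 (R 4.3.3, quasi-likelihood, TMM, filterByExpr), with genotype as the only term and Benjamini-Hochberg adjustment over 16195 genes (threshold 0.05). SE was the absolute log2 fold change over the root of F, and intervals are at 95%. CPM used TMM-scaled library sizes. Counts and intervals are limited by the 17 hearts and by depth. Alternatives used DESeq2 1.42.0, limma 3.58.1, other scalings and filters, sex as a covariate (read from sex-linked genes, since the labels give none), the replicate number as a block, and left-out hearts. An analysis of male hearts alone was added after seeing the data.

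The members, the gene lists and the hearts left out together (replicates 6 and 9) were chosen with earlier results of these data known. Genes named are the 10 members, for each list up to 5 genes past the threshold with the smallest p (or the 2 smallest where none passed), and for each member the 2 genes with the highest Spearman's rho. Gene promoters came from RefSeq, and *Pecam1*, *Cdh5* and *Vcam1* had no entry. Figures were drawn with Python 3.11.15 and matplotlib 3.10.9.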

Additional observations from a re-analysis of the deposited data

Results flagged for a closer look

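In 2 of the 20 groups of values checked (10 genes in 2 groups), 1 heart lay far from the rest by Dixon's test, where chance gives about 5% of groups. Both were hMut replicate 6. Its *Vcam1* level was 68.8 CPM with the next hMut heart at 31.3 CPM, and its *Icam1* level was 36.1 CPM with the next at 20.4 CPM. That heart also held the highest summed leukocyte markers (1177 CPM), and a part of leukocytes in either value was not tested.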

How the results depend on the processing

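The number of the 10 genes called was 1 in the reported fit and also with RLE or upper-quartile scaling, a filter of at least 1 CPM in 8 libraries, protein-coding genes alone, and sex as a covariate. It was 2 with DESeq2 (*Kdr* and *Icam1*), 4 with limma-voom and quality weights (*Pecam1*, *Cdh5*, *Kdr* and *Icam1*), and 0 without a filter on low counts (*Kdr* adjusted p = 0.0533), with scaling to endothelial genes, without hMut replicates 6 and 9, and in male hearts. Of the list genes, 8 were called in the reported fit, 21 with DESeq2, 29 with limma-voom, 5 with sex as a covariate, 3 with scaling to endothelial genes, 4 without hMut replicates 6 and 9, and 0 in male hearts. In the reported fit 3.48% of all genes tested were called higher and 1.14% lower, and the list counts were not tested against these shares. DESeq2 called 1012 higher and 512 lower of 14922 genes, and limma-voom 1175 and 906 of 16195. The member and list calls by these tools were not tested against those counts. Leaving out each heart in turn gave 0 to 2 of the 10 genes, 3 to 23 list genes and 395 to 1792 genes in all. Over all genes, 749 were called in the reported fit, 1524 with DESeq2, 2081 with limma-voom, 463 without a filter, 335 with scaling to endothelial genes and 431 without replicates 6 and 9. Estimates that changed sign were *Tek* (0.0030) and *Vcam1* (-0.15) with limma-voom, *Tie1* (-0.088) and *Egfl7* (-0.085) with scaling to endothelial genes, *Vcam1* (-0.18) without replicates 6 and 9, and *Tie1* (-0.028) in male hearts. With 1 heart left out, *Tie1* ranged from -0.0021 to 0.068, *Egfl7* from -0.0033 to 0.077 and *Vcam1* from -0.12 to 0.22. The cause was not tested.

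Replicate numbers are shared between the groups but did not pair the hearts: over 8 pairs the correlation of deviations from the group means ran from -0.23 to 0.34, 1 pair exceeded 0.1, and 1 Ctrl heart was closest to its own number. With the replicate block 0 of the 10 genes and 0 list genes were called, 195 genes in all, and the estimate of *Egfl7* changed sign (-0.013).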
